A study of Homo sapiens with 5 samples.

Results

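The cells described here are the calprotectin-high cells of an untreated breast cancer culture at 72 h. They were picked by a score, the UMIs (unique molecular identifiers, 1 per captured RNA molecule) of S100A8 plus S100A9 per 10000 UMIs of the cell. Among barcodes with at least 5000 UMIs, at least 1000 genes and at most 20% mitochondrially encoded UMIs, the top 10% by score were the members. That gave 288 high cells of 2885 kept cells in this library, out of 14911 kept cells in the whole series. They were set against the 1442 cells in the bottom 50%, and 1155 cells lay between the classes. The score sorted the cells, so S100A8 and S100A9 were left out of every readout and their own levels are given as a description.

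The series measured single-cell RNA in MDA-MB-468 cells, a long-used line from a human triple-negative breast tumour, to follow the effects of inhibiting acetyl-CoA carboxylase (ACC), an enzyme of fatty acid synthesis. It held 5 libraries, 1 per group. These were untreated cells at 0 h, cells given the ACC inhibitor PF0517515 for 6 h, cells given it for 72 h, untreated cells at 72 h, and cells in recovery after 72 h of inhibitor. No dose, vehicle or length of recovery is given in the labels. The same score and the same class limits, as percentiles of each library, were applied to the 4 libraries that the choice of members had not used, which gave 370 and 1850 high and low cells at 0 h, 300 and 1498 at 6 h of inhibitor, 187 and 934 at 72 h of inhibitor and 346 and 1731 in recovery.

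Calprotectin is a heterodimer of the small calcium-binding proteins S100A8 and S100A9. It binds zinc and manganese and so starves microbes of metal, and outside the cell it acts as an inflammatory signal through receptors such as TLR4 and AGER (RAGE). Neutrophils and monocytes hold large amounts of it, and squamous or inflamed epithelium can make it too, often with psoriasin (S100A7) and other antimicrobial proteins of the skin. S100A8, S100A9 and S100A7 belong to the same gene cluster on chromosome 1.

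In GENCODE 29 on GRCh38, S100A9 spans chr1:153357854-153361027 on the plus strand, S100A8 spans chr1:153390032-153391188 on the minus strand and S100A7 spans chr1:153457744-153460701 on the minus strand. The start regions are shown because these are the genes that define the members and the gene that follows them most closely. The 250 bases before the RefSeq start of S100A9 (GRCh38.p14, chr1:153357604-153357853, plus strand) read as below, with capitals marking TATAAA, the core of a TATA box.
S100A9: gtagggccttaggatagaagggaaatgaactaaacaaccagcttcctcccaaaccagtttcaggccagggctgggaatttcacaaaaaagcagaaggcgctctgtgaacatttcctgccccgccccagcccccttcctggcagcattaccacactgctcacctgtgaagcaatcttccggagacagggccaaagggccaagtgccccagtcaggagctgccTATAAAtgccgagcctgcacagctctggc

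The 30 bases from 40 to 11 bases before the RefSeq start are set side by side for S100A8 (chr1:153391084-153391113, minus strand), S100A9 (chr1:153357814-153357843, plus strand), S100A7 (chr1:153460662-153460691, minus strand) and S100A7A (chr1:153416480-153416509, plus strand), again with TATAAA in capitals.
S100A8: agcctaaccgcTATAAAaaggagctgcctc
S100A9: caggagctgccTATAAAtgccgagcctgca
S100A7: caggctgagcctTATAAAggactgctcttt
S100A7A: caggctgagcctTATAAAggactgctcttt
The motif began 29 bases before the start in S100A8 and S100A9 and 28 bases before it in S100A7 and S100A7A, and the S100A7 and S100A7A windows were identical over all 30 bases. RefSeq lists 3 starts for S100A8, of which 1 had the motif at this place. The S100A8 and S100A7 windows lie inside the longer GENCODE 29 models. TATAAA on the gene's strand from 40 to 20 bases before the start occurred in 796 of 27305 genes (2.92%). It occurred in 4 of the 10 genes with a RefSeq promoter among the 20 genes that were highest in the members (S100A7, S100A7A, ID1 and MUC1), and in 0 of the 10 with one among the 15 lowest. TTCNNNGAA (a STAT motif), TGANTCA (AP-1), TTGCNNAA (C/EBP) and GGGANTTCC (NF-kB) were sought on both strands, where matches of different motifs may overlap. They occurred in 8.09%, 8.06%, 11.03% and 1.94% of all genes over the same 250 bases and had no match in S100A8, S100A9 or S100A7, which says only that these letters are not in the windows.

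The score formed a continuous range and no separate group of cells. Members began at 266, with the 5 cells just inside the limit at 266.497 to 268.767 and the 5 just outside at 264.697 to 266.446. The median was 323 in the members, 166 in the middle cells and 59.5 in the low cells, and the highest cell reached 808. Low cells still held calprotectin RNA, since 92 of 1442 had no S100A8 UMI and 2 had no S100A9 UMI. S100A9 made up 284.5 of every 10000 UMIs in the members against 55.6 in low cells, and S100A8 made up 71.7 against 4.94.

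The classes were chosen on the sum of both genes, so the balance of the subunits is given as a description only. There were 25.2 S100A8 UMIs per 100 S100A9 UMIs in the members, 14.997 in the middle cells and 8.88 in the low cells. High and low cells stood at 20.1 and 10.1 at 0 h, 21.8 and 10.5 at 6 h of inhibitor, 4.83 and 1.58 at 72 h of inhibitor and 14.2 and 6.23 in recovery. Over the 2885 kept cells the levels of S100A8 and S100A9 per 10000 UMIs had a Spearman rho of 0.887, a description over cells that share a library and a depth. Ranking by S100A8 alone kept 217 of the 288 members (75.3%), and ranking by S100A9 alone kept 260 (90.3%).

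Such levels were rare in the other libraries. Cells at or above the 72 h untreated member limit numbered 19 at 0 h (0.514%, exact binomial 95% interval 0.309 to 0.801), 8 at 6 h of inhibitor (0.267%, 0.115 to 0.525), 2 at 72 h of inhibitor (0.107%, 0.0130 to 0.386) and 101 in recovery (2.92%, 2.38 to 3.53). By library, the median score ran from 6.13 in the culture with 72 h of inhibitor through 48.1 (6 h of inhibitor), 61.3 (0 h) and 83.7 (recovery) to 112 at 72 h untreated. With 1 library per group these differences have no replicate check, and the intervals cover counting error only.

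**Figure D1:**
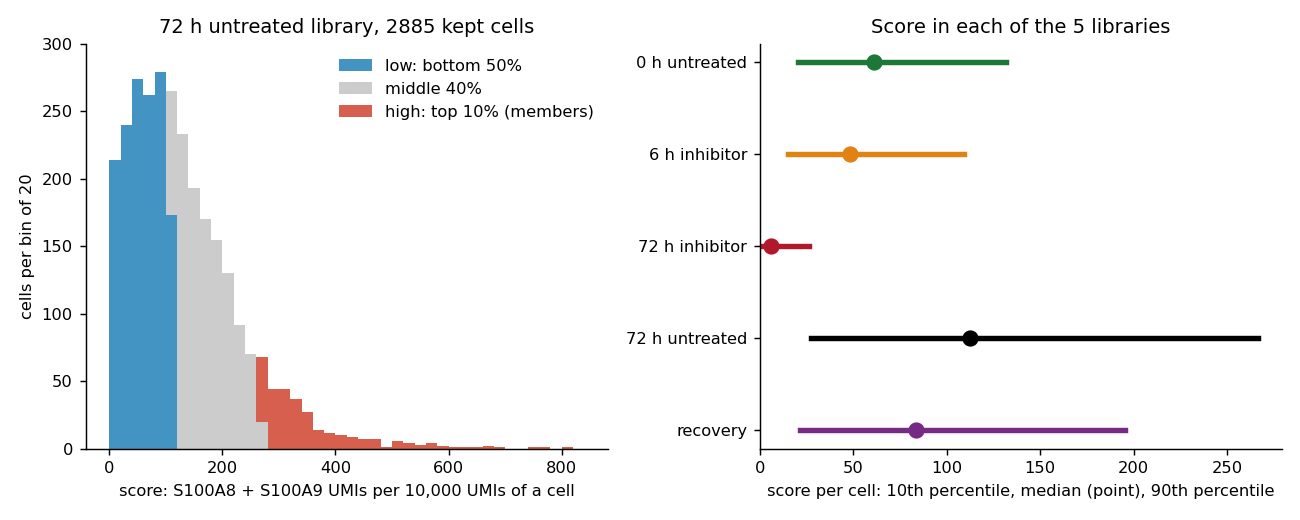
Left, cells of the 72 h untreated library per bin of 20 score units, stacked by class, with the score (S100A8 plus S100A9 UMIs per 10000) on the x axis. Right, the median score (point) and the 10th to 90th percentiles (line) of each library; the members form the tail from 266 to 808, and the 72 h untreated library has the highest median, 112.

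Members were slightly shallower than low cells. Median UMIs per cell were 26773 and 30152, median genes 5791.5 and 6405, and the median mitochondrially encoded share 6.57% and 5.84%. Doublets were not removed, and 8 members (2.78%) against 76 low cells (5.27%) lay in the library's top 5% by UMIs. Forming the classes within 5 depth strata of cells by UMIs kept 256 of the 288 members. The libraries held 2057 to 3736 barcodes each, and 8 barcodes of the 72 h untreated library (0.267%) also occurred in another library.

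Calprotectin is best known from myeloid cells, so markers of other cell types were checked. All 10 epithelial markers were measured, meaning at 10 CPM (UMIs per 1000000, without those of S100A8 and S100A9) or more in either class. They had a summed level of 12510 CPM in the members and 11692 CPM in low cells. Of the 10, 8 were higher in the members and 2 lower, EPCAM at 363 against 424 CPM and EGFR at 2028 against 2820 CPM. Of 20 myeloid markers, 2 were measured. CD14, an endotoxin co-receptor, stood at 136 against 75.8 CPM, and CSF3R, the receptor of granulocyte colony-stimulating factor, at 14.7 against 8.66 CPM. The leukocyte marker PTPRC (CD45) was at 0.618 against 1.31 CPM, and ITGAM, FCGR3A, FCGR3B, FCN1, VCAN, TYROBP, MPO, ELANE, CXCR2 and MNDA had no UMI in the members. The summed level of 11 lymphoid markers was 0.247 against 0.653 CPM and that of 12 stromal and endothelial markers 10.9 against 10.4 CPM, none of them measured. In edgeR over the 4 libraries not used to choose the members, set out below, 3 of 7 tested myeloid markers rose and 0 fell. Of all tested genes 11.3% rose. CD14 rose in edgeR by 1.44 (SE 0.0816, adjusted p = 1.594e-07) and CSF3R by 1.19 (adjusted p = 0.0002693). The lysosomal glycoprotein CD68 rose by 0.61 (edgeR adjusted p = 0.007743), and each of the 3 was higher in 4 of 4 libraries. At 72 h untreated CD68 was under the 10 CPM limit, at 2.97 CPM in members (24 UMIs) and 2.76 CPM in low cells (131 UMIs). The members thus had the epithelial markers of the line and higher CD14 and CSF3R levels, with most leukocyte markers at or near 0.

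Of 9346 genes measured in the 72 h untreated library, 140 (1.5%) were more than 1.5-fold higher in the members and 432 (4.62%) more than 1.5-fold lower, and the median of all genes was -0.10 on the log2 scale. Of all measured genes 32.8% were higher and the rest lower, and the counts of higher and lower genes in each list below stand against that share. Scaling by the median of ratios in place of the UMI total gave 188 higher and 284 lower, which moved the higher share of these genes from 24.5% to 39.8%. Trimmed-mean-of-M-values scaling gave 193 and 283. Both classes come from 1 library, so this comparison has no test, and the intervals given with folds are exact 95% intervals of counting error.

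The contrast was then tested over the 4 libraries that had not been used to choose the members, with high and low cells of each library as a pair in edgeR's quasi-likelihood test. High here means high for the library, and most of these cells scored below the member limit of 266. In the 72 h inhibitor library the high class began at 26.5 and had a median of 41.7. That median lies under the 59.5 of the 72 h untreated low class, whose top was 112.4. The high class began at 109.5 in the 6 h inhibitor library, 132 in the 0 h library and 196 in recovery. Of 16088 genes, 1818 (11.3%) rose and 1416 (8.8%) fell in the high cells at a Benjamini-Hochberg adjusted p under 0.05, with a median log2 change over all tested genes of -0.0002. These calls rest on the comparison within libraries, since 0 genes passed without the library in the model (371 at an unadjusted p under 0.05). Without the 6 h inhibitor library 1118 genes rose and 897 fell, and without the 0 h library 1210 rose and 1411 fell. The 4 libraries are different conditions and nothing in the labels says which came from separate cultures, so the p-values measure the spread of the contrast over these libraries.

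The 140 genes that were higher in the members had the same direction in edgeR in 140 cases and were called in that direction in 127 (90.7%, against 11.3% of all tested genes). Of the 432 lower genes, 410 had the same direction, 253 were called in it (58.6%, against 8.8%) and 1 was called in the opposite one. These genes all reached 10 CPM, unlike many of the 16088. Among the 20 highest genes by the naming rule, 19 were on the same side in each of the other 4 libraries, and among the 15 lowest, 15 were. ADGRE2, an adhesion G protein-coupled receptor, was the exception at -0.02 (log2 ratio) at 0 h.

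**Figure D2:**
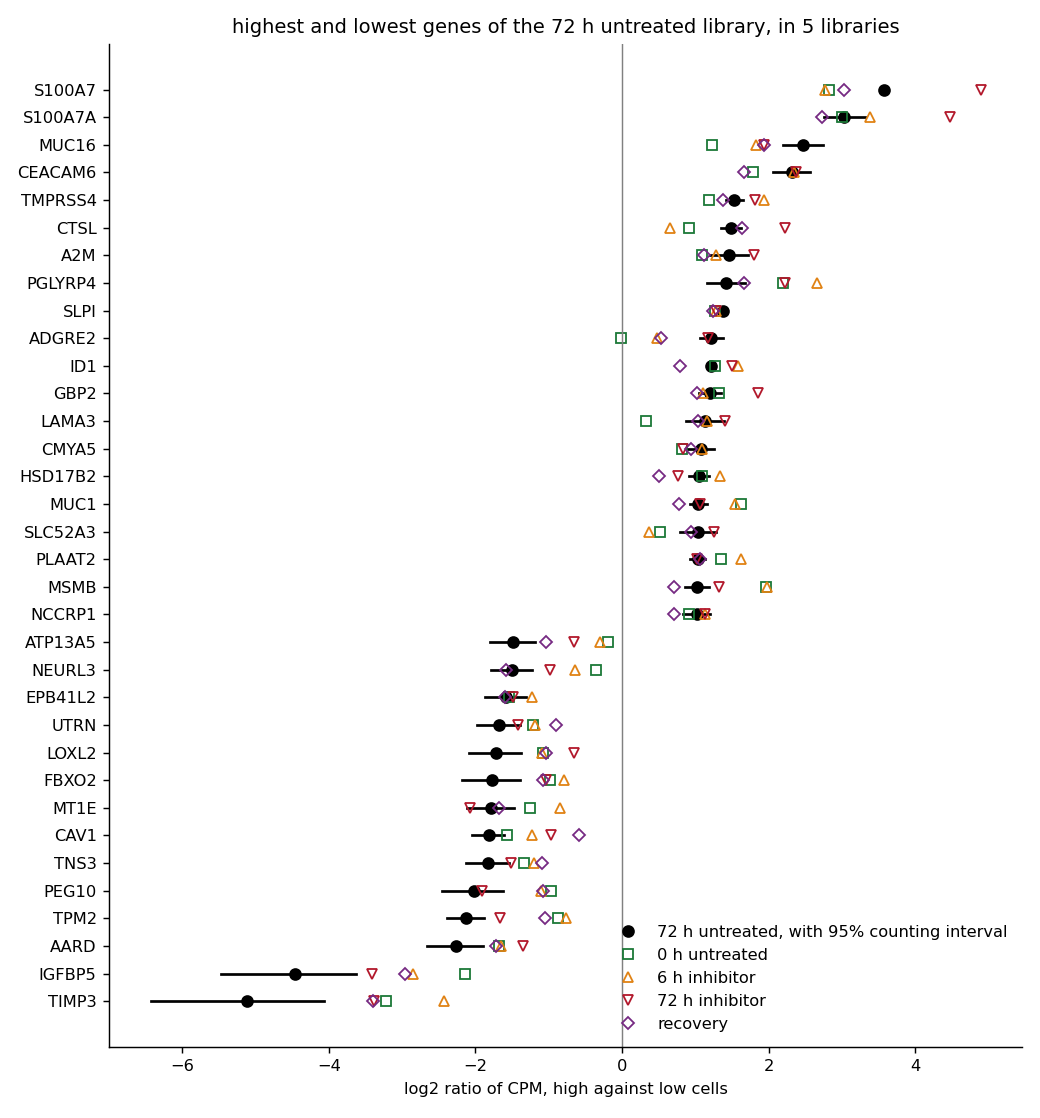
Log2 ratio of CPM in high against low cells for the highest and lowest genes by the naming rule in the 72 h untreated library, leaving out 1 gene that is not reported here (black, bars are 95% counting intervals) with the same ratio in the other 4 libraries (open symbols). The open symbols lie on the side of the black point, with ADGRE2 at 0 h (-0.02) as the exception.

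The strongest companion of calprotectin was psoriasin, encoded by S100A7, an antimicrobial S100 protein of skin and breast epithelium. S100A7 stood at 9564 CPM in the members and 802 CPM in low cells of the 72 h untreated library. High and low cells stood at 4676 and 658 CPM at 0 h, 3057 and 447 CPM at 6 h of inhibitor, 707 and 23.7 CPM at 72 h of inhibitor, and 4268 and 521 CPM in recovery. High cells were above low cells in each of the 5 libraries, although the high cells at 72 h of inhibitor held less S100A7 than the low cells at 72 h untreated. The fold at 72 h untreated was 11.9 (11.8 to 12.1), and over the other 4 libraries S100A7 rose by 3.42 on the log2 scale (SE 0.245, edgeR adjusted p = 7.731e-07, higher in 4 of 4). A UMI of S100A7 was found in 100% of members and 69.8% of low cells after thinning each cell to 5000 UMIs, and in 100% and 92.6% before thinning, at median depths of 26773 and 30152 UMIs. In a cell line no class of cells that should lack the gene was at hand, so background from free RNA could not be set beside these shares.

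S100A7A (koebnerisin) is a close copy of S100A7, and how the authors' counting split reads between them is uncertain. S100A7A stood at 31.8 against 3.88 CPM (log2 ratio 3.03) and rose in edgeR by 3.18 (SE 0.194, adjusted p = 1.945e-07, higher in 4 of 4 libraries). Its level was far below that of S100A7 in both classes.

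Other antimicrobial genes followed. Of the 10 measured genes of the antimicrobial list, 10 were higher in the members, 5 of them past 1.5-fold, with a median log2 ratio of 0.68. In edgeR 12 of 13 rose and 0 fell, with a median of 1.36. SLPI, a secreted inhibitor of neutrophil elastase, stood at 1629 against 628 CPM at 72 h untreated. The pairs of high and low values for SLPI were 1018 and 421 CPM at 0 h, 805 and 331 CPM at 6 h of inhibitor, 544 and 224 CPM at 72 h of inhibitor and 1576 and 668 CPM in recovery. The ratio of SLPI was thus close to the same in libraries of different level, and edgeR gave a log2 change of 1.36 (SE 0.0474, adjusted p = 1.146e-09, higher in 4 of 4).

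LCN2, which traps the iron carriers of bacteria, had a log2 ratio of 0.79 in the members and rose by 1.16 in edgeR (SE 0.0733, adjusted p = 2.585e-07). PGLYRP4, which binds bacterial peptidoglycan, stood at 22.7 against 8.47 CPM, a fold of 2.68 (2.24 to 3.20), and rose by 2.15 (SE 0.160, adjusted p = 1.083e-06). The acute phase genes SAA1 and SAA2 had smaller ratios at 72 h untreated (0.47 and 0.57) than their changes in edgeR (1.32 and 1.37, adjusted p = 8.802e-07 and 3.362e-07), as did the protease inhibitor PI3 (elafin), at 0.18 and 0.84 (adjusted p = 3.522e-05). Whether the 72 h untreated library differs from the others for these genes was not tested.

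The remaining S100 genes moved in different directions. Of 10 measured, 8 were higher and 2 lower in the members with a median of 0.34, and in edgeR 7 of 12 rose and 2 fell. S100A11 stood at 3822 against 2497 CPM (log2 ratio 0.61) and rose by 0.69 in edgeR (SE 0.0438, adjusted p = 2.585e-07). S100A14 was 1.59-fold higher (1.55 to 1.63) and S100P 1.45-fold higher (1.37 to 1.55), and both rose in edgeR. S100A2, by contrast, was 1.88-fold lower (1.66 to 2.14) and fell by 0.90 (SE 0.0731, adjusted p = 2.662e-06, lower in 4 of 4 libraries). Genes for reported calprotectin receptors were not higher in the members. BSG, NPTN and ALCAM, the 3 of 8 that were measured, had log2 ratios of -0.18, -0.19 and -0.09, and in edgeR 0 of 5 rose and 1 fell.

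The genes around the pair were compared by position. Within 1 Mb of the S100A9 to S100A8 interval the files held 91 genes, S100A8 and S100A9 included. Apart from these, 28 genes were measured. Their median log2 ratio was 0.19, 22 were higher, 6 (21.4%) were past 1.5-fold higher against 1.5% of all genes, and 1 was past 1.5-fold lower. The 6 were PGLYRP4, S100A7A, S100A7, S100A14, CREB3L4, and IVL, which encodes involucrin of the squamous cell envelope. CREB3L4, a transcription factor, was at 0.67, and ILF2 (an RNA-binding protein), CHTOP (mRNA export) and GATAD2B (a chromatin remodelling subunit) were at 0.12, -0.07 and -0.16. S100A12, which lies between S100A9 and S100A8, had 23 UMIs in members and 30 in low cells, under the 10 CPM limit, and rose by 1.94 in edgeR (SE 0.282, adjusted p = 0.0003133).

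**Figure D3:**
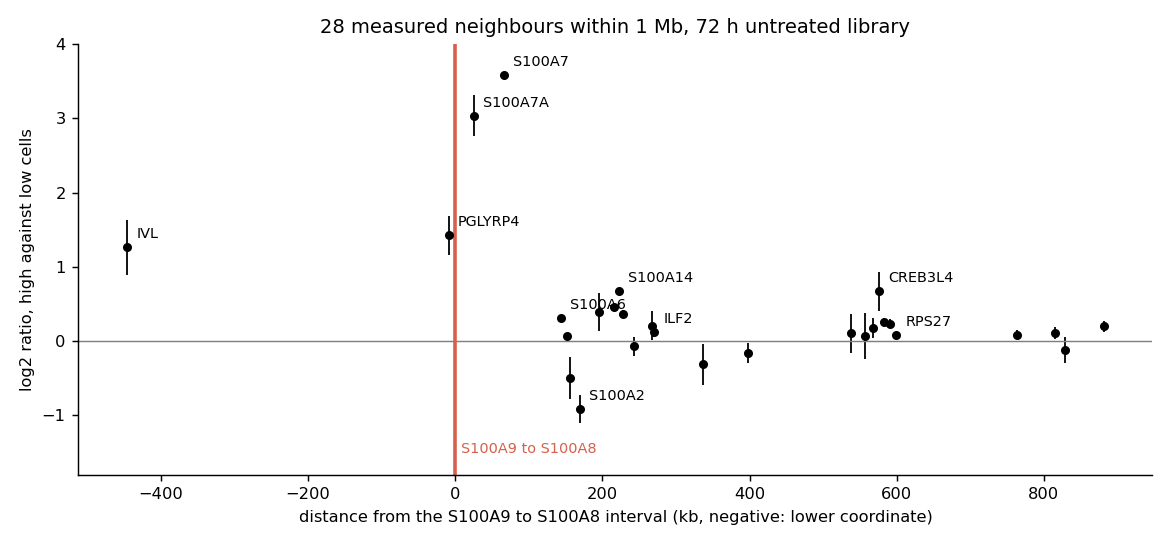
Log2 ratio of high against low cells at 72 h untreated for the 28 measured genes within 1 Mb, by distance in kb from the S100A9 to S100A8 interval (0), with bars for 95% counting intervals. The highest are S100A7 (3.58), S100A7A (3.03) and PGLYRP4 (1.42), all within 100 kb of the interval, and S100A2 (-0.91) lies lowest.

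Mucins and other surface glycoproteins of secretory epithelium were the other group with large ratios. Of 11 measured, 10 were higher in the members and 6 past 1.5-fold, with a median of 0.69, and in edgeR 10 of 15 rose and 0 fell. In cells low in both cell cycle lists the median of the mucin list was 0.22. CEACAM6, a cell adhesion glycoprotein, stood at 28.8 against 5.79 CPM at 72 h untreated, 17.1 against 4.92 CPM at 0 h, 21.0 against 4.12 CPM at 6 h of inhibitor, 26.1 against 5.02 CPM at 72 h of inhibitor and 20.1 against 6.36 CPM in recovery. CEACAM6 rose by 2.14 in edgeR (SE 0.121, adjusted p = 1.594e-07, higher in 4 of 4). MUC16, which carries the CA125 antigen, stood at 26.7 against 4.80 CPM at 72 h untreated, a fold of 5.56 (4.59 to 6.72), and rose by 1.83 (SE 0.140, adjusted p = 1.387e-06). MUC1, another membrane mucin, was 2.06-fold higher (1.90 to 2.23) and rose by 1.36 (SE 0.119, adjusted p = 4.698e-06).

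CEACAM6 and MUC16 were found in a minority of cells. After thinning, a CEACAM6 UMI was present in 11.5% of members (8.02 to 15.7) and 2.64% of low cells (1.87 to 3.60), and in 40.3% and 13.7% before thinning. For MUC16 the thinned shares were 9.38% (6.27 to 13.3) and 2.57% (1.81 to 3.52), and the unthinned shares 29.5% and 10.1%. In the members 5 cells held 18.0% of the CEACAM6 UMIs and 20.8% of the MUC16 UMIs.

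Luminal and secretory genes were higher as a list, with 18 of 20 measured members higher, 4 past 1.5-fold and a median of 0.22, and 14 of 20 rose in edgeR. SPDEF, a transcription factor of secretory epithelium, stood at 99.2 against 53.7 CPM and rose by 0.88 (SE 0.0609, adjusted p = 5.945e-07). KRT18 and KRT19, keratins of simple epithelium, had log2 ratios of 0.30 and 0.38 and rose in edgeR (adjusted p = 0.0003086 and 0.00105). Squamous genes were higher too, at 11 of 12 with 4 past 1.5-fold and a median of 0.44, and 17 of 30 rose in edgeR. Among them SERPINB1, an inhibitor of neutrophil proteases, stood at 734 against 480 CPM and rose by 0.89 (SE 0.0829, adjusted p = 8.322e-06), and CALML5, a calcium-binding protein of keratinocytes, at 370 against 224 CPM. IVL was 2.41-fold higher (1.85 to 3.103) at 72 h untreated and rose in edgeR by 1.25 (adjusted p = 0.000523), with a ratio of -0.09 in recovery. The basal keratin and adhesion list had no common direction, at 5 higher and 8 lower and a median of -0.05 (0.03 when scaled by the median of ratios).

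Further genes at the top came from varied groups. TMPRSS4, a membrane serine protease, stood at 113 against 38.9 CPM (fold 2.89, 2.67 to 3.14) and rose by 1.67 (SE 0.0995, adjusted p = 1.945e-07). ID1, which blocks basic helix-loop-helix transcription factors, stood at 563 against 244 CPM (fold 2.31, 2.23 to 2.39) and rose by 1.38 (SE 0.0940, adjusted p = 4.860e-07). CTSL, a lysosomal protease, was 2.80-fold higher (2.54 to 3.09), the protease inhibitor A2M 2.76-fold (2.30 to 3.30), the interferon-inducible GTPase GBP2 2.30-fold (2.06 to 2.55) and HSD17B2, which inactivates estradiol, 2.06-fold (1.88 to 2.27). These rose in edgeR as well, as did LAMA3 (a laminin chain), SLC52A3 (a riboflavin transporter), PLAAT2 (a phospholipid acyltransferase), MSMB, CMYA5 and NCCRP1, with adjusted p from 4.207e-07 to 0.0008589.

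Immune-related lists had smaller ratios at 72 h untreated. Of 18 measured interferon response genes 12 were higher, 3 past 1.5-fold (SAMD9, OAS1 and IFITM2), with a median of 0.16, and in edgeR 16 of 36 rose and 0 fell. OAS1, a sensor of double-stranded RNA, was 1.94-fold higher (1.63 to 2.30) and rose by 1.20 (SE 0.0979, adjusted p = 2.662e-06). Of 13 genes of MHC class I presentation 9 were higher, 0 past 1.5-fold, and 9 of 15 rose in edgeR, among them HLA-B, whose reads close relatives can share, at 521 against 432 CPM (adjusted p = 3.799e-05). Of 15 NF-kB targets and cytokines 10 were higher and 5 lower, with a median of 0.11 (-0.10 to 0.20 over the alternatives described below). In edgeR 15 of 23 rose and 1 fell, with a median of 0.53 (0.65 for the mucin list). CFB, the complement factor, was 1.78-fold higher (1.59 to 1.99) and rose by 1.31 (SE 0.102, adjusted p = 1.723e-06), and CSF1, a macrophage growth factor, was 2.27-fold lower (1.93 to 2.68) and fell by 0.50 (adjusted p = 0.00272). The 1.78-fold ratio of CXCL8, the neutrophil chemokine, drew 75.2% of its UMIs in members from 5 cells. The immediate early genes JUNB, FOS and ZFP36 were 1.66-fold, 1.51-fold and 1.84-fold higher, and 6 of 14 genes of that list rose and 1 fell in edgeR.

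**Figure D4:**
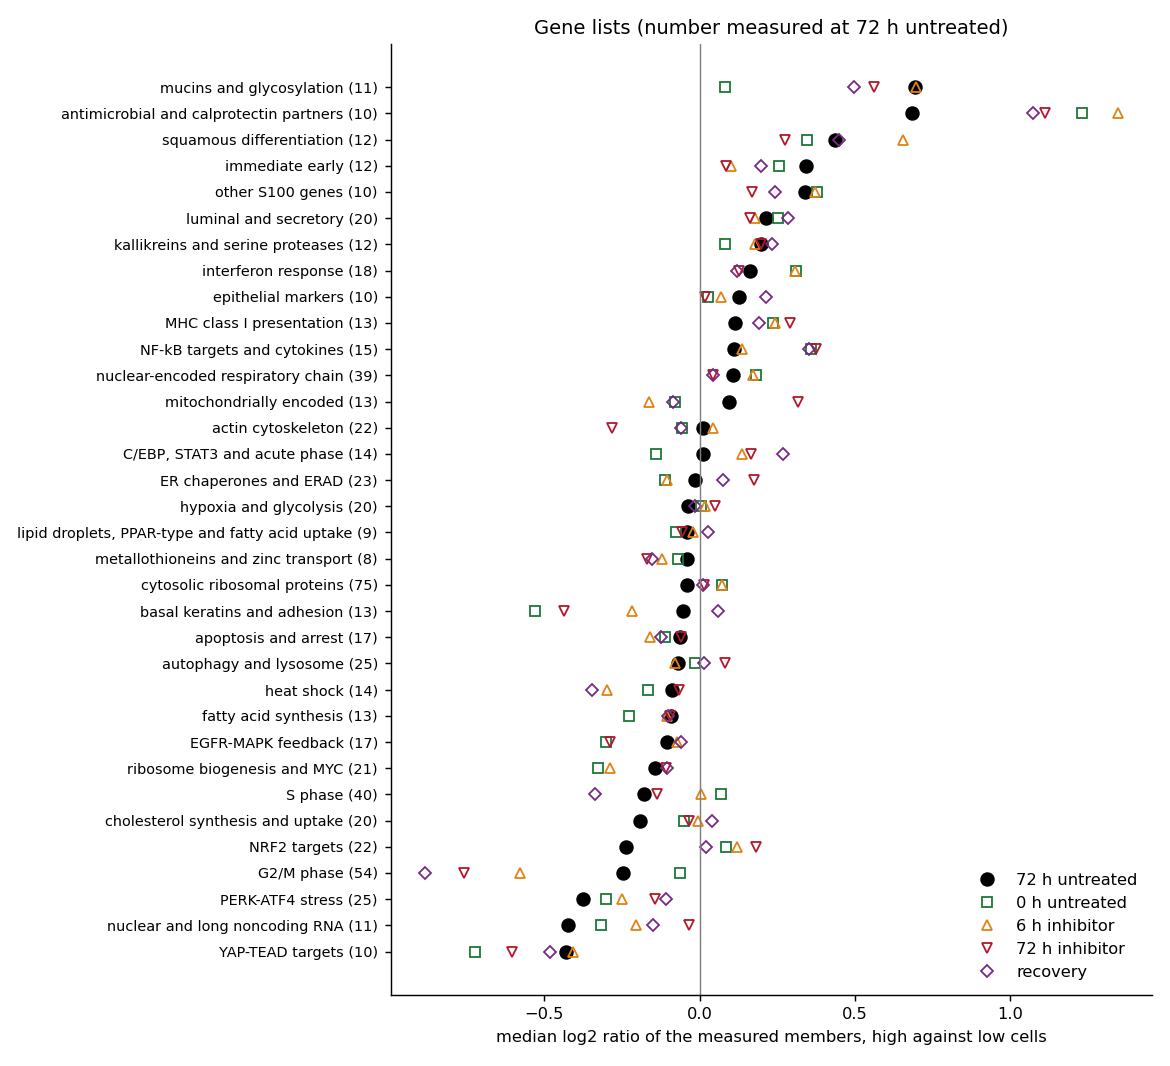
Median log2 ratio of high against low cells for each gene list with at least 5 measured genes (number in brackets), at 72 h untreated (black) and in the other 4 libraries (open symbols). Mucins (0.69) and antimicrobial genes (0.68) lie highest and YAP-TEAD targets (-0.43) lowest at 72 h untreated.

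The lowest genes are given by name. The actin cytoskeleton list had 11 genes higher and 11 lower with a median of 0.01, and in edgeR 7 of 23 rose and 6 fell. TIMP3, an inhibitor of matrix metalloproteinases, had 7 UMIs in the members and 1421 in low cells, or 0.865 against 29.9 CPM. High and low values for TIMP3 were 1.61 and 15.01 CPM at 0 h, 3.46 and 18.7 CPM at 6 h of inhibitor, 1.31 and 13.7 CPM at 72 h of inhibitor and 0.323 and 3.41 CPM in recovery. High cells were below low cells in each library. The fold at 72 h untreated was 34.6 (16.8 to 86.2), and TIMP3 fell by 2.84 on the log2 scale in edgeR (SE 0.171, adjusted p = 1.945e-07, lower in 4 of 4). A TIMP3 UMI was present in 1.39% of members and 17.3% of low cells, and in 0.347% and 6.87% after thinning.

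IGFBP5, a binding protein of insulin-like growth factors, had 11 UMIs in members and 1428 in low cells (1.36 against 30.1 CPM, fold 22.1, 12.3 to 44.4), with 35.6% of the low-class UMIs from 5 cells. It fell by 2.52 in edgeR (SE 0.178, adjusted p = 6.857e-07, lower in 4 of 4). CAV1, the main protein of caveolae, stood at 23.0 against 81.2 CPM at 72 h untreated, 122 against 360 CPM at 0 h, 162 against 379 CPM at 6 h of inhibitor, 36.1 against 70.9 CPM at 72 h of inhibitor and 65.5 against 98.6 CPM in recovery. CAV1 was therefore lower in high cells throughout, while its level differed widely between libraries, and it fell by 1.01 in edgeR (SE 0.107, adjusted p = 2.757e-05). TPM2, an actin-binding tropomyosin, stood at 16.7 against 73.3 CPM (fold 4.39, 3.70 to 5.26) and fell by 0.95 (SE 0.112, adjusted p = 6.642e-05).

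TNS3 (a focal adhesion protein), LOXL2 (a collagen cross-linking enzyme), UTRN (utrophin) and EPB41L2 (a membrane skeleton protein) were 3.01-fold to 3.55-fold lower and fell in edgeR (adjusted p from 1.945e-07 to 1.012e-05). PEG10, AARD, FBXO2, NEURL3 and the metallothionein MT1E, which has close copies, also fell (adjusted p from 1.594e-07 to 0.001078). ATP13A5 fell by 0.39 (adjusted p = 0.03998), a call that was lost in DESeq2 and without the 6 h inhibitor, the 72 h inhibitor or the recovery library (log2 changes of -0.46, -0.32 and -0.30). YAP-TEAD targets, a programme of spread and adherent cells, were lower as a list, at 8 of 10 with 2 past 1.5-fold and a median of -0.43, and 9 of 13 fell and 0 rose in edgeR. CRIM1 was 1.75-fold lower (1.57 to 1.95) and fell by 0.77 (SE 0.0860, adjusted p = 4.335e-05), and TGFB2, a growth factor, was 1.62-fold lower (1.51 to 1.74).

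EGFR, the receptor that this line carries at high level, stood at 2028 CPM in members and 2820 CPM in low cells, a 1.39-fold difference (1.37 to 1.41). It fell by 0.34 in edgeR (SE 0.0963, adjusted p = 0.02433, lower in 4 of 4). The size was uneven between libraries. In recovery the log2 ratio of EGFR was -0.03 (1486 against 1513 CPM), above that library's median over all genes of -0.09. The 72 h inhibitor library had -0.20, the 6 h inhibitor library -0.62 and the 0 h library -0.88. The edgeR call for EGFR was lost in DESeq2 (-0.33), without the 0 h library (-0.22) and without the 6 h inhibitor library (-0.27). Of 22 EGFR-MAPK feedback genes tested in edgeR, a list that holds EGFR itself, 6 fell and 0 rose, while 8.8% of all genes fell. Among the 6 were EGFR and SPRY2 (by 0.59, edgeR adjusted p = 0.0008713). At 72 h untreated 12 of 17 measured genes of the list were lower, 1 of them past 1.5-fold. Their median was -0.10, the same as over all genes.

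Stress genes were compared by list. Of 25 measured PERK-ATF4 genes, which respond to endoplasmic reticulum stress, 24 were lower, 5 past 1.5-fold, with a median of -0.37. The list medians were -0.30 (0 h), -0.25 (6 h of inhibitor), -0.14 (72 h of inhibitor) and -0.11 (recovery), the last near that library's -0.09 over all genes. In edgeR 6 of 27 fell and 1 rose. SESN2 and DDIT4, past 1.5-fold lower at 72 h untreated, had edgeR changes of 0.03 and -0.06 (adjusted p = 0.7903 and 0.6906). GDF15, a stress cytokine, had 14 UMIs in members and 760 in low cells, 44.9% of the latter from 5 cells, a fold of 9.26 (5.48 to 17.0), and fell by 0.74 (SE 0.168, adjusted p = 0.007292). STC2 was 2.14-fold lower (1.72 to 2.69) and fell by 0.45 (adjusted p = 0.00793), a call lost without the 6 h inhibitor library (-0.40). The heat shock list had a median of -0.09 at 72 h untreated, near that of all genes. Its medians were -0.17 (0 h), -0.30 (6 h of inhibitor), -0.07 (72 h of inhibitor) and -0.35 (recovery). In edgeR 5 of its 14 genes fell and 1 rose, against 8.8% and 11.3% of all genes. The endoplasmic reticulum chaperone list had a median close to 0 at 72 h untreated, at -0.01, or 0.07 when scaled by the median of ratios. In edgeR 5 of its 25 genes rose and 0 fell.

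Of 22 measured NRF2 targets, which serve iron storage and redox balance, 14 were lower in the members, close to the share over all genes. The list had 4 genes past 1.5-fold lower and a median of -0.24. The other libraries had list medians of 0.08 (0 h), 0.12 (6 h of inhibitor), 0.18 (72 h of inhibitor) and 0.02 (recovery), and in edgeR 11 of 23 rose and 2 fell. The difference between libraries was not tested. FTH1, the ferritin heavy chain that stores iron, stood at 6499 against 11512 CPM (1.77-fold lower, 1.76 to 1.79) and had log2 ratios of -0.23, -0.19, -0.36 and -0.49 in the same order of libraries. FTH1 fell by 0.22 in edgeR (SE 0.0537, adjusted p = 0.01011), a call lost without the recovery library (-0.18). AKR1C1, a ketosteroid reductase with close copies, was 2.38-fold lower (2.19 to 2.60) at 72 h untreated, and its edgeR change of -0.23 had an adjusted p of 0.2453. GPNMB, a lysosomal glycoprotein, had 11 UMIs in members against 647 and fell by 1.01 (SE 0.133, adjusted p = 0.0001477).

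Proliferation genes were compared by phase. Of 54 G2/M genes 49 were lower, with a median of -0.25, and 39 of 54 fell and 0 rose in edgeR. Of 40 measured S phase genes 35 were lower (median -0.18), against a median of -0.10 over all genes, while at 0 h 26 of 42 were higher, and in edgeR 1 of 42 rose and 0 fell. After thinning to 5000 UMIs, the share of cells above the library's 80th percentile of G2/M UMIs was 16.3% in members (12.2 to 21.1) and 21.0% in low cells (18.9 to 23.2), intervals that overlap. The high and low shares were 20% and 20.3% at 0 h, 11.3% and 23.8% at 6 h of inhibitor, 12.3% and 25.7% at 72 h of inhibitor and 9.83% and 23.2% in recovery. At 0 h the shares lay within 1 percentage point of each other, and in the other 3 libraries the high cells had less. For S phase the shares at 72 h untreated were 13.5% (9.81 to 18.0) and 20.5% (18.4 to 22.6). They were 22.4% and 18.2% at 0 h, 15.7% and 17.8% at 6 h of inhibitor, 15.5% and 19.7% at 72 h of inhibitor, and 10.1% and 23.4% in recovery, so the high cells had the larger S phase share at 0 h and the smaller one in the others. With only cells low in both cycle lists, 244 genes were past 1.5-fold higher and 772 lower.

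Nuclear and long noncoding RNAs were lower in the members, at 10 of 11 with a median of -0.42, and 3 of 11 fell in edgeR. MALAT1, an abundant nuclear RNA, stood at 6104 against 9624 CPM and fell by 0.29 (SE 0.0653, adjusted p = 0.00606). Nuclear-encoded genes of the respiratory chain had small ratios in one direction, with 30 of 39 higher and a median of 0.11, and 31 of 39 rose in edgeR. Ribosomal protein genes stood at -0.04 by the UMI total and at 0.04 by the median of ratios, so no direction is given for them at 72 h untreated. In edgeR 37 of 75 rose and 0 fell, with a median of 0.14, while 11.3% of all genes rose. Whether the 72 h untreated library differs from the others for them was not tested.

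Across all cells of the 72 h untreated library the readout changed by degrees with the score. When the cells were placed in 10 bins by score, with the members as the last, S100A7 went from 130 CPM in the first bin to 1519 CPM in the fifth, 4726 CPM in the ninth and 9564 CPM in the members. SLPI went from 350 to 811, 1184 and 1629 CPM over the same bins, and ID1 from 144 to 318, 518 and 563 CPM. CAV1 went the other way, from 141 to 55.9, 34.0 and 23.0 CPM, and TIMP3 from 56.7 to 8.99, 1.33 and 0.865 CPM. MUC16 had another course, at 3.69 to 9.23 CPM in the first 9 bins and 26.7 CPM in the members. Of the MUC16 UMIs in the members 20.8% came from 5 cells, which the counting intervals do not take into account.

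**Figure D5:**
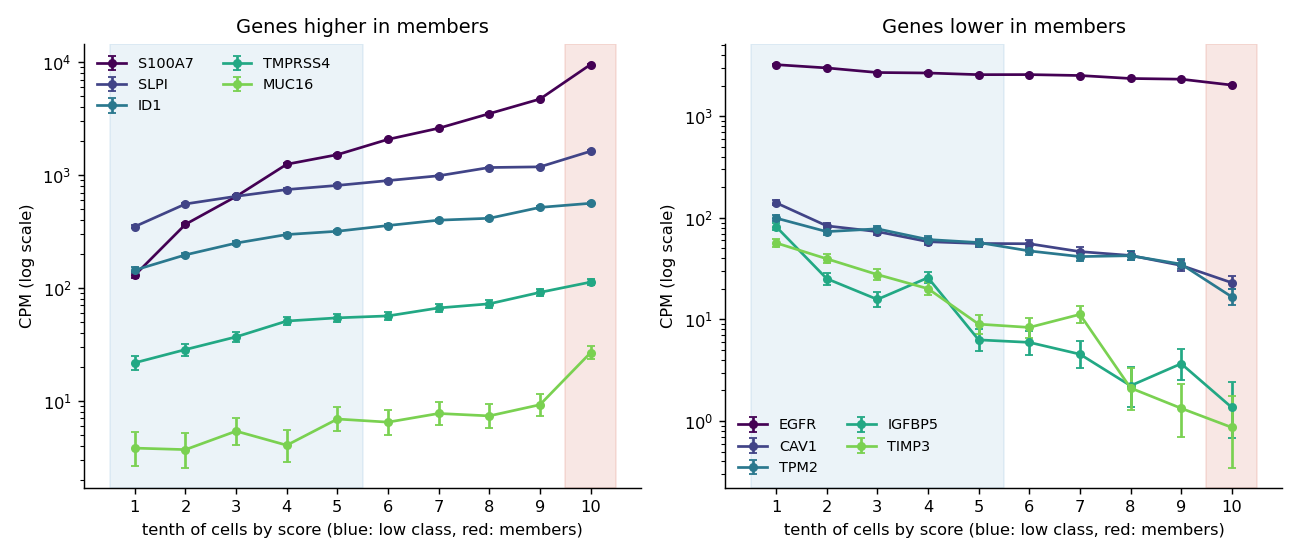
Level (CPM, log scale, bars are 95% counting intervals) of 5 genes higher and 5 genes lower in the members, in 10 bins of the 72 h untreated cells by score. S100A7 climbs from 130 to 9564 CPM and CAV1 declines from 141 to 23.0 CPM by steps, and MUC16 steps up in the last bin (26.7 CPM).

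The genes whose level per cell was most like the score were ranked over 6823 genes and 2885 cells thinned to 5000 UMIs. S100A7 had a Spearman rho of 0.775, followed by SLPI (0.427), S100A11 (0.393), PLAAT4 (0.350), ID1 (0.339), CRABP2 (0.329), CASP14 (0.279), FXYD3 (0.268), CD24 (0.263) and RARRES1 (0.251). PLAAT4, CRABP2 and RARRES1 are known as retinoid-related genes, and CASP14 is a protease of the cornifying epidermis. PLAAT4 stood at 1227 against 643 CPM and CRABP2, a retinoic acid carrier, at 1414 against 869 CPM. The most negative were FTH1 (-0.393), CAV1 (-0.219), LINC01895 (-0.219), EGFR (-0.209) and TPM1 (-0.200), a tropomyosin at 576 against 859 CPM. These are descriptions over cells that share a library, and S100A7 stands well apart from the rest.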

How the data were processed

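The values are UMI counts per gene and barcode, deposited by the authors as 5 sparse matrices of 36601 features. Per the submitters' processing notes, Cell Ranger 7.1.0 and GRCh38 were used. Neither the annotation release nor the treatment of intronic reads is stated in those notes. The labels' protocols name trypsin dissociation and the 10x 3' chemistry, version 3.1, aiming at 10000 cells. Kept cells per library ranged from 1868 to 3700, and median UMIs per cell from 26954.5 to 42464.

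Counts were summed per class and scaled to CPM without S100A8 and S100A9. Genes of at least 10 CPM in either class were compared, a sum under 3 would take a floor of 3 counts, and ratios carry exact 95% Clopper-Pearson intervals. Summed counts of the 4 libraries not used to choose the members were tested with edgeR 4.0.16 (R 4.3.3), with the library as a block and Benjamini-Hochberg adjustment over all genes tested. Named were the genes of at least 20 CPM with the 20 highest and 15 lowest ratios, up to 4 genes per list with the largest ratios, and the 10 most like the score, 160 by the first parts of the rule; a selection is printed, and 1 gene among the lowest is not reported here. The 20 highest and 15 lowest were ranked without mitochondrially encoded genes and without LINC or clone-type names. LINC01895, at a log2 ratio of -1.58, was left out of the lowest in this way. Other genes named, such as LCN2, SAA1, PI3, ILF2, CHTOP, GATAD2B and CD68, were chosen after their values were seen. The members, the 39 gene lists and the alternatives were chosen with earlier results of these data known. The steps were tested on simulated counts. Alternatives included other class limits, scalings, level minimums, thinning, depth-matched classes, DESeq2 1.42.0 and leaving out each library. Sums and ratios used Python 3.11.15 with scipy 1.17.1, numpy 2.4.6 and pandas 2.3.3, and plots matplotlib 3.10.9. Promoters come from RefSeq on GRCh38.p14.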

Additional observations from a re-analysis of the deposited data

Results flagged for a closer look

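A few genes past 1.5-fold lower in the members lay on the other side, beyond counting error, in another library. AKR1C2, a ketosteroid reductase with close copies, had a log2 ratio of high against low cells of -0.65 at 72 h untreated and -0.90 in recovery, but 0.26 (0 h), 0.40 (6 h of inhibitor) and 0.15 (72 h of inhibitor) elsewhere. DDIT4, an inhibitor of mTORC1 signalling, stood at -0.64 at 72 h untreated and at 0.28 at 6 h of inhibitor. With 1 library per group these differences between libraries were not tested.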

How the results depend on the processing

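At 72 h untreated, 572 genes were past 1.5-fold (140 higher, 432 lower). A 2-fold limit gave 118 (33 and 85), a minimum of 50 CPM 117 (49 and 68), and no minimum 11519 (9404 and 2115), where low counts enter. With no minimum, genes at or under the floor of 3 counts in both classes took a log2 ratio of 2.55. That ratio reflects the different UMI totals of the classes, so the 9404 are not a count of genes higher in the members. The top 5% of cells gave 944 (781 lower), the top 20% 328 (225 lower), thinned cells 1315 (315 and 1000), and cells low in both cycle lists 1016 (244 and 772), both with fewer UMIs or cells. Median-of-ratios scaling gave 284 lower and trimmed-mean scaling 283. In edgeR, 3234 genes were called (1818 higher, 1416 lower). Those also past 1.5-fold numbered 814 (451 and 363). Without a filter on low counts, 1169 rose and 2973 fell. DESeq2 called 1538 and 1011. Leaving out 1 library gave 2015 to 2621 calls, 1118 to 1435 higher and 897 to 1411 lower. Without the library as a block 0 genes were called (0 higher, 0 lower). CXCL8 turned to -0.10 with the top 5% of cells, and with cells low in both cycle lists CKAP2L turned to 1.29 and FN1 to -0.45; the cause was not tested. Of the named genes' log2 changes in edgeR, 1400 stayed on their side of the threshold, 161 lost their call, among them each called gene without the library block, and 39 gained one over the alternatives, and 0 turned direction with a call. Depth limits genes under 10 CPM, and doublets and free RNA were not removed.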
